A study of Mus musculus with 4 samples.

Results

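The glycolysis and glucose transport genes are 33 genes that carry glucose into the cell, split it to pyruvate, and pass pyruvate to lactate or hold it back from the mitochondrion. The members were picked out of the matrices by gene symbol, with no threshold on their values, and all 33 were found among the 32285 genes of the count matrices, where they fill 34 rows because Aldoa has a second row with at most 6 UMIs in a library. They were measured in CD45+ leukocytes that were sorted from collagenase-digested hindpaws and sequenced with the 10x Genomics 3′ v3 chemistry. DB were male Leprdb/db mice, a model of obesity and type 2 diabetes that rests on loss of leptin receptor signalling in the whole body. WT were their male LeprWT/WT littermates, so all groups came from the same strain and went through the same digestion and sort. The labels call the libraries young or aged and wild-type or diabetes, and the study's methods give the ages as 12 and 21 weeks. Each of the 4 groups, WT or DB at either age, was 1 library of cells pooled from 2 to 3 mice, so the groups have no replicates and genotype and age were compared without a test.

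Glucose enters leukocytes through facilitative transporters of the Slc2a family, is trapped by hexokinases, and is committed to glycolysis by phosphofructokinase. Aldolase and the enzymes of the lower pathway then yield ATP, NADH and pyruvate, and lactate dehydrogenase with the monocarboxylate transporters turns pyruvate to lactate and moves it across the membrane. Most steps are served by several isozymes from separate genes, and many of these genes are known targets of the hypoxia-inducible factors, which bind DNA at a short core motif. Neutrophils are known to depend on glycolysis for much of their ATP, and activated lymphocytes and inflammatory macrophages raise it.

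The promoters shown are those of genes whose level was highest in 1 cell type in 4 libraries, with no overlap with any other type: Hk2 and Bpgm in dendritic epidermal T cells, Slc16a3 and Hk3 in neutrophils, Ldha in ILC2 and Eno2 in mast cells. Each line gives the 250 bases before the first transcription start listed by RefSeq (build GRCm38.p6), read 5′ to 3′ on the gene's strand. Capitals mark the hypoxia-factor core motif, searched as ACGTG or GCGTG on both strands, with overlapping matches joined to 1 stretch. Hk2 (gene ENSMUSG00000000628 in the matrices) is shown at chr6:82774455-82774704 on the minus strand and Bpgm (ENSMUSG00000038871) at chr6:34476106-34476355 on the plus strand. Slc16a3 (ENSMUSG00000025161) is at chr11:120948817-120949066, plus strand, and Hk3 (ENSMUSG00000025877) at chr13:55021386-55021635, minus strand. Ldha (ENSMUSG00000063229) is at chr7:46845554-46845803, plus strand, and Eno2 (ENSMUSG00000004267) at chr6:124769674-124769923, minus strand. The Ensembl spans of Ldha, Slc16a3 and Bpgm begin at 46841475, 120948480 and 34476207. The bases shown thus lie inside the spans of Ldha and Slc16a3 and partly inside that of Bpgm.
Hk2: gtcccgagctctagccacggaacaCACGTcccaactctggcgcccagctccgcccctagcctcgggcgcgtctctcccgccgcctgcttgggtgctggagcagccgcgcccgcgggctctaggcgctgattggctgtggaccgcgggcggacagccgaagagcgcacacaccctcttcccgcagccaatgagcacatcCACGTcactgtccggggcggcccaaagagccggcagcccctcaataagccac
Bpgm: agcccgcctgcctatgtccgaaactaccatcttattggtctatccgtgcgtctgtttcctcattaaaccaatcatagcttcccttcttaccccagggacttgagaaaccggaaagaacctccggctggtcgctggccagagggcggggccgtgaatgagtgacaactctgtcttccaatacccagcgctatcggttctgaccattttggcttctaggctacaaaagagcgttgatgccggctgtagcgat
Slc16a3: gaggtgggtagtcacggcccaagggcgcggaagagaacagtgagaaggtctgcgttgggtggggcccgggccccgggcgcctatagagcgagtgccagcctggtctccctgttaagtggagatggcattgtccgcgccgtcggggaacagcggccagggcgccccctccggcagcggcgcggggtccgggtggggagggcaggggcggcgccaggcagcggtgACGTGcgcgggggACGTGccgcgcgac
Hk3: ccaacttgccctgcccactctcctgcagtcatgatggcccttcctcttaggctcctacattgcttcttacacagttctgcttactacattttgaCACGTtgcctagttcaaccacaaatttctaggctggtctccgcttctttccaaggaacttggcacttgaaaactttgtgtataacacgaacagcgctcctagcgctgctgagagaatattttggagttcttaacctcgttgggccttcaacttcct
Ldha: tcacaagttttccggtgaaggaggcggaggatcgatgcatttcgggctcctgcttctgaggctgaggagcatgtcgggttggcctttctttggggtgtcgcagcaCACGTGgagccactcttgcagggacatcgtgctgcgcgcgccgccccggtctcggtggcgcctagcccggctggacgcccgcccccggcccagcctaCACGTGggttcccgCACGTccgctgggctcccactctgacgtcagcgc
Eno2: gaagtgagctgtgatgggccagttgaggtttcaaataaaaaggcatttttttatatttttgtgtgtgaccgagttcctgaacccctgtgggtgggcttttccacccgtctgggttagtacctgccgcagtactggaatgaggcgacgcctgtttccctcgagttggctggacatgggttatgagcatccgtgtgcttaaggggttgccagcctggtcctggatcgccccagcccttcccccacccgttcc

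Of these, Ldha held 3 stretches of the motif, Hk2 and Slc16a3 held 2 each, Hk3 held 1, and neither Bpgm nor Eno2 held any. The table of promoters had an entry for 32 of the 33 members, all but Slc2a3. Over these, 22 of 32 (68.8%) held the motif at least once in the 250 bases, against 10431 of 27025 genes (38.6%). A match describes letters only, not a bound site.

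The matrices held 5998 to 9124 barcodes a library, of which 5271 to 8707 passed a minimum of 200 genes and a maximum of 10% mitochondrial UMIs, with median depths of 5355 (21-week-DB) to 8000.5 UMIs. Ptprc, which encodes CD45, was at 551 to 689 CPM in all libraries. Barcodes were placed in 12 cell types by the UMIs of marker genes, none of them a member, and each name below stands for barcodes that carry that type's markers. cDC1 and cDC2 are conventional dendritic cells, ILC2 are type 2 innate lymphoid cells, and DETC are the dendritic epidermal T cells of mouse skin. Of the kept barcodes 20.6% to 27.9% met no gate or several. Gated groups ranged from 1788 macrophages in 12-week-DB to 21 cDC1 in 21-week-DB, where 28.6% of the cDC1 and 20.8% of the 48 neutrophils had a high doublet score. Libraries shared 6 to 154 barcodes per pair, the most between both 21-week libraries (1.88% of the smaller one). Cell Ranger is given as 5.0.0 in the headers of the 12-week libraries and as 6.0.0 in those of the 21-week libraries, so software and age cannot be told apart.

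Levels are UMIs of a gene scaled to the total of all UMIs of the same barcodes (CPM). Each molecule was counted once at its 3′ end, so values do not scale with gene length and are compared here across cell types for 1 gene, not between genes. In the sum over the 33 members, neutrophils were highest, at 6168, 6017, 4715 and 3321 CPM in WT and DB at 12 weeks and then WT and DB at 21 weeks, the order used for all values in groups of 4. B cells were lowest, at 1431, 1426, 1345 and 1293. The other 10 types lay between 1749 (NK cells of 21-week-WT) and 4061 (cDC2 of 12-week-WT), and the neutrophils of 21-week-DB fell within that range.

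**Figure D1:**
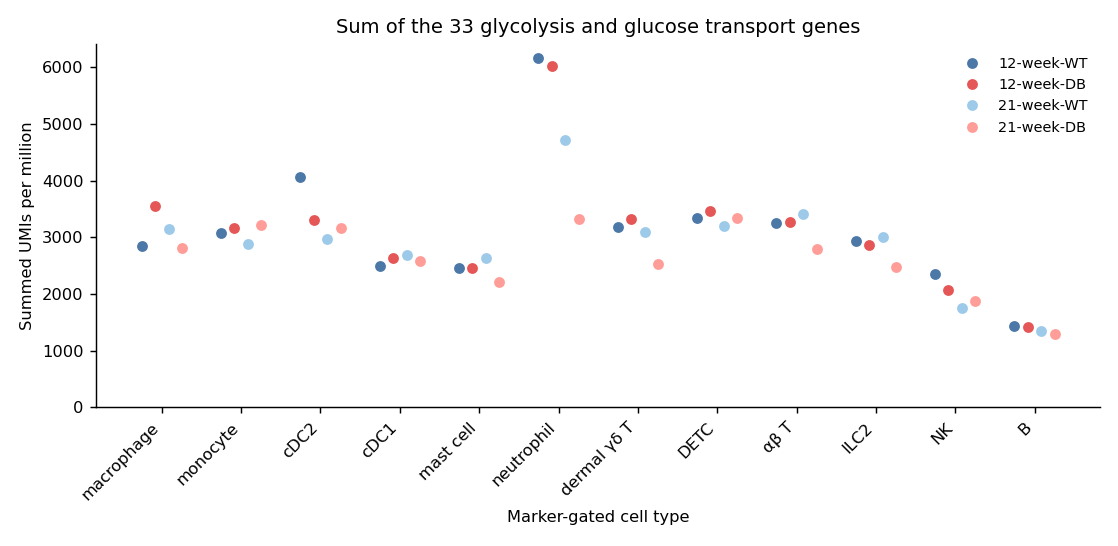
Summed CPM of the 33 members (vertical axis) in each marker-gated cell type (horizontal axis), 1 point per library. Neutrophils of the first 3 libraries sit between 4715 and 6168, above all other points, and B cells sit between 1293 and 1431, below all others.

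Which cell types carry which isozymes was tested with edgeR's quasi-likelihood test on UMI sums, each type against the mean of the other 11, with the library as a block and Benjamini-Hochberg adjustment over 11775 genes. Its p-values rest on residual spread pooled over the 12 types and the 4 libraries of different genotype and age, after the library block. They do not measure the spread of a single type between libraries. The marker genes of the gates were left out of these fits. In 12-week-WT this left 458063 of 543762 UMIs in neutrophils and 658816 of 760859 in mast cells. The log2 differences are thus not on the scale of the CPM, and total UMIs as a scaling of the fits means the UMIs of the genes left in. Of the 33 members 30 passed the filter on low counts, and Pfkfb1, Pfkfb2 and Fbp1 did not. Neutrophils had 17 of 30 members higher, against 21.1% of all genes tested, and 4 lower (21.4%). cDC2 had 17 higher (32.3%) and 2 lower (20%), and monocytes 14 higher (22.6%) and 3 lower (12.2%). Macrophages, with 13 higher (38.3%) and 8 lower (25.1%), were near the background, as were cDC1 with 8 higher (24.9%) and 7 lower (18.7%). The split in cDC1 turned to 5 higher and 9 lower when counts were scaled by total UMIs only.

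The other 7 types had more members lower than higher, except αβ T cells. B cells had 16 of 30 members lower (20.3% of all genes) and 1 higher (20.8%), and NK cells 9 lower (7.30%) and 2 higher (10.9%). DETC had 14 lower (22.6%) and 6 higher (25.9%). Mast cells had 14 lower (23.1%) and 11 higher (25.9%). Dermal γδ T cells had 10 lower (18%) and 7 higher (25.6%), a split that became 8 lower and 9 higher with total UMIs only. αβ T cells had 8 higher (24.3%) and 5 lower (16.2%), and ILC2 6 higher (25.3%) and 9 lower (16.2%).

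**Figure D2:**
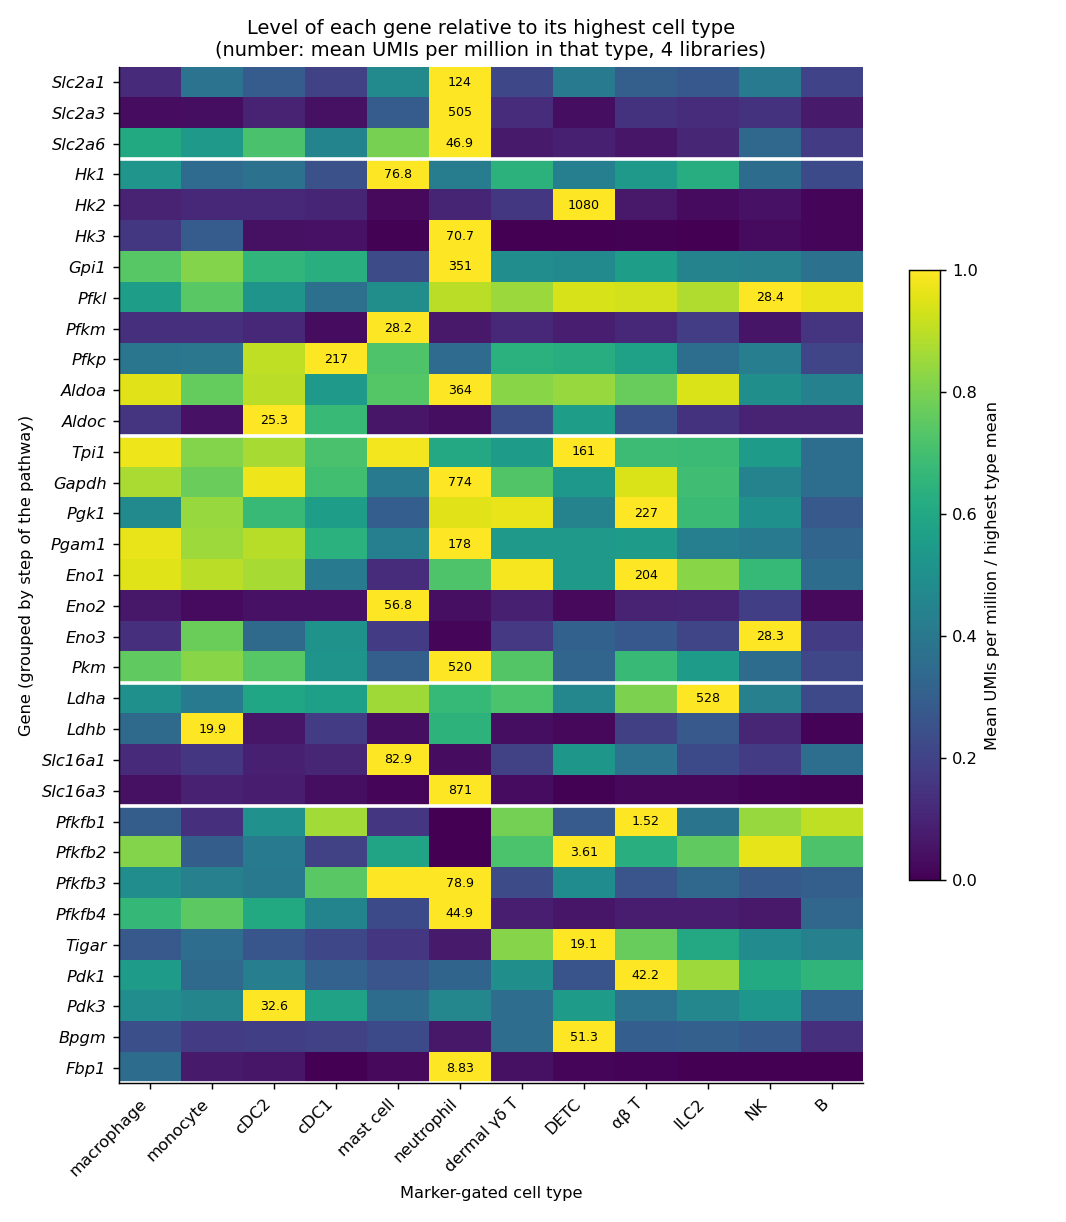
Mean level of each member over 4 libraries in each marker-gated cell type (columns), as a share of the mean in its highest type, with genes in rows grouped from transporters to regulators and the highest mean written in its cell in CPM. Hk2 and Bpgm stand out in DETC (1080 and 51.3), Slc16a3 and Slc2a3 in neutrophils (871 and 505), and Eno2, Pfkm and Slc16a1 in mast cells.

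The highest cell type did not overlap any other type in any library for 10 of the 33 members, and 14 had the same highest type in all 4 libraries. The share of all genes that meet either rule was not computed, so these counts do not set the members apart. Of the 10, Hk1, Pfkm, Eno2 and Slc16a1 were highest in mast cells, Hk3 and Slc16a3 in neutrophils, Hk2 and Bpgm in DETC, Ldha in ILC2 and Pdk3 in cDC2. These are levels in sorted and gated cells, where a difference between types is one of RNA share and says nothing of enzyme activity.

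Slc2a3, the high-affinity glucose transporter GLUT3, was at 747, 579.8, 529 and 163 CPM in neutrophils, 505 ± 246 (SD, n = 4). Mast cells came next at 164, 172, 169.8 and 84.5, which put the neutrophils of 21-week-DB within the range of mast cells. All other types were under 100 in each library, with macrophages lowest on average at 13 to 23.5. Against the mean of the other types Slc2a3 was higher in neutrophils (log2 difference 3.97, SE 0.14, adjusted p = 1.24e-27) and in mast cells (log2 difference 1.50, SE 0.16, adjusted p = 1.24e-10), and lower in macrophages (log2 difference -1.84, SE 0.18, adjusted p = 1.46e-12).

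Slc2a1, the broadly expressed transporter GLUT1, was at 99.3, 198, 122 and 75.7 CPM in neutrophils and at 12.2 to 20.2 in macrophages, again the highest and the lowest type on average, though the lowest neutrophil library met the highest value of NK cells (75.7). The edgeR fit gave a log2 difference of 2.25 for neutrophils and -1.50 for macrophages (adjusted p = 2.74e-11 and 3.63e-09). Slc2a6, a transporter of the endolysosomal membrane, was mostly a myeloid gene. Its levels were 22.1 to 67.7 in neutrophils, 18.3 to 32.7 in macrophages, 26.3 to 40.0 in cDC2 and 26.6 to 43.4 in mast cells, against 1.23 to 5.03 in αβ T cells and 4.10 to 5.93 in ILC2. NK cells, at 8.75, 25.2, 11.1 and 17.4, overlapped macrophages and also cDC1, which were at 16.1, 12.1, 10.3 and 46. In the contrast of the 6 myeloid with the 6 lymphoid types it was higher (log2 difference 2.63, SE 0.15, adjusted p = 1.82e-19).

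The hexokinases, which trap glucose as glucose 6-phosphate, divided by cell type. Hk2, the isozyme that binds mitochondria and is induced by growth signals, was at 1188, 1098, 1002 and 1031 CPM in DETC, 1079.8 ± 82.7 (SD, n = 4). The next type, dermal γδ T cells, was at 225, 149, 203 and 127, so the lowest DETC library stood well above the highest value of any other type. The difference from the mean of the other types was the largest of the 30 members tested in DETC (log2 difference 3.89, SE 0.14, adjusted p = 6.90e-27). Hk2 was lowest in B cells (11 to 25.4) and low in mast cells (17.1, 21.3, 53.4 and 19.9).

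Hk3, the isozyme of granulocytes and monocytes, was at 131, 52.1, 60.2 and 39.8 CPM in neutrophils, 16.4 to 23.4 in monocytes and 8.11 to 15.3 in macrophages, and at 0.216 to 0.629 in αβ T cells. The edgeR differences were 6.11 in neutrophils, 3.86 in monocytes and 2.74 in macrophages on the log2 scale, each with an adjusted p of at most 3.33e-15. Hk1, the constitutive isozyme, was highest in mast cells at 76.2, 90.5, 82.5 and 57.9, against a maximum of 56.2 in any other type (log2 difference 1.22, SE 0.13, adjusted p = 2.13e-11). Each of the 3 hexokinases thus had a different highest type.

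Gpi1, which converts glucose 6-phosphate to fructose 6-phosphate, was at 555, 292, 305 and 251 in neutrophils and at 86.7, 87, 77.6 and 68.8 in mast cells. It was higher in neutrophils (log2 difference 1.37, SE 0.11, adjusted p = 2.85e-15) and lower in mast cells (log2 difference -1.42, SE 0.13, adjusted p = 9.26e-13). The phosphofructokinases, which commit the sugar to glycolysis, also divided. Pfkm, the muscle isozyme, was at 38.1, 23.1, 31.5 and 19.9 CPM in mast cells and at most 8.62 elsewhere (log2 difference 3.12, SE 0.29, adjusted p = 8.60e-13). The 6 skeletal muscle markers summed to 0 to 4.75 CPM in mast cells. Pfkp, the platelet isozyme, was highest in dendritic cells, at 231, 195, 252 and 192 in cDC1 and 324, 169, 165 and 127 in cDC2, which overlapped each other (log2 differences 1.24 and 1.02, adjusted p = 6.76e-12 and 9.54e-11).

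Pfkl, the liver isozyme, had its lowest mean in cDC1 (10.4). Its mean was 28.4 in NK cells and 27.6 in B cells, its highest types, and it was the 1 phosphofructokinase that was lower in myeloid than lymphoid types (log2 difference -0.50, SE 0.12, adjusted p = 2.53e-04). Aldoa, the main aldolase of these cells, ranged from 161 ± 33.1 in B cells to 364 ± 92.3 in neutrophils (SD, n = 4). Aldoc, the isozyme known from brain, was at 35, 30.1, 26.2 and 9.76 in cDC2 and 19.7, 16.1, 13 and 19.2 in cDC1, and was called higher in both (log2 differences 2.90 and 2.18, adjusted p = 4.57e-18 and 3.30e-09). The 21-week-DB library was the low one for Aldoc in cDC2 and not in cDC1, where it held 5 UMIs.

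In the lower pathway the enolases, which turn 2-phosphoglycerate to phosphoenolpyruvate, separated mast cells from all other types. Eno2, the isozyme known from neurons, was at 55.2, 47.9, 58.2 and 66 CPM in mast cells, 56.8 ± 7.48 (SD, n = 4). No library of any other type exceeded 14.6 (log2 difference 4.18, SE 0.22, adjusted p = 7.38e-21). Eno1, the ubiquitous isozyme, was at 25, 30.2, 21.8 and 26.6 in mast cells and at 151 to 246 in macrophages and 165 to 193 in cDC2, and it was lower in mast cells than in the mean of the other types (log2 difference -2.52, SE 0.16, adjusted p = 8.16e-18).

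The low Eno1 values of mast cells did not stand above the free RNA estimated for these barcodes. The share of foreign UMIs in mast cells was estimated from markers of other types, H2-Aa and H2-Eb1 among them. It was 12.2% to 17.4%, and with it subtracted Eno1 was at 0 in mast cells of all 4 libraries. Eno2 was then at 62.5, 57.2, 65.8 and 77.3 and Pfkm at 44.2, 27.6, 35.6 and 23.1, above their unsubtracted values. The subtracted profile was that of all kept barcodes, and the totals shrank with it. A gene scarce in other types thus rises by construction. Hk2 of mast cells went to 0, 0, 43.9 and 3.95. The cDC2 marker list, which holds H2-Aa and H2-Eb1, summed to 2176 to 3578 CPM in mast cells and 5689 to 23023 over all kept barcodes. B cell markers were at 21.4 to 297 and 75.9 to 586, and macrophage markers at 143 to 323 and 3324 to 5319. Whether the H2-Aa and H2-Eb1 RNA of mast cells is foreign was not tested, so the values of 0 hold only for the share as estimated. Eno1 has a near-identical copy, Eno1b, which held 124 to 230 UMIs a library against 7842 to 12660 for Eno1, and reads that fit both copies cannot be told apart. The median depth of mast cells was 1402 to 2052 UMIs, the lowest of the 12 types.

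Eno3, the muscle enolase, was highest on average in NK cells (52.5, 14.4, 28.8 and 17.4, on 18, 4, 13 and 4 UMIs) and monocytes (27.6, 27.1, 19.8 and 13.2), which overlapped. The cDC1 of 21-week-DB reached 34.5 on 9 UMIs. Eno3 was called higher in NK cells and in monocytes (log2 difference 2.17, SE 0.34, adjusted p = 3.86e-06 and log2 difference 1.98, SE 0.26, adjusted p = 1.52e-08), while the skeletal muscle markers summed to 4.34 to 18 CPM in NK cells and 8.22 to 19.2 in monocytes. Gapdh, Pgk1, Pgam1 and Pkm, which carry triose phosphate to pyruvate, were higher in neutrophils and lower in B cells by 1.03, 1.17, 1.25 and 1.39 in the former and -1.02, -1.23, -0.96 and -1.45 in the latter (log2 differences, all called). Pkm, the pyruvate kinase of these cells, was at 647, 639, 482 and 311 in neutrophils, 423, 456, 377 and 456 in monocytes and 145, 124, 87.4 and 87.6 in B cells. Tpi1 was the exception in neutrophils, with a log2 difference of 0.14 that did not pass (adjusted p = 0.478).

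At the end of the pathway the lactate transporters divided too. Slc16a3, the lactate exporter MCT4, was at 1184, 1101, 847 and 350.4 CPM in neutrophils, 871 ± 375 (SD, n = 4), with all 4 libraries above the highest value of any other type (109, monocytes of 21-week-DB). The difference was 5.87 on the log2 scale (SE 0.19, adjusted p = 3.23e-29). Slc16a1, the related transporter MCT1, was lowest in neutrophils (9.20, 0, 2.08 and 0) and highest in mast cells (106, 105, 63.1 and 57.4, log2 difference 2.42, SE 0.18, adjusted p = 5.92e-16). It was also higher in DETC (log2 difference 1.54, SE 0.21, adjusted p = 3.46e-08).

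Ldha, which makes lactate from pyruvate, was at 517, 520.3, 543 and 531 CPM in ILC2, 528 ± 11.6 (SD, n = 4), and was higher there (log2 difference 0.82, SE 0.12, adjusted p = 1.21e-07). Mast cells (442, 413, 480.2 and 471) and αβ T cells (393, 452, 422 and 428) followed and overlapped each other, and B cells were lowest at 108, 104, 104 and 153 (log2 difference -1.55, SE 0.16, adjusted p = 9.37e-11). Ldhb, the isozyme that favours the reverse reaction, was scarce, at 14.8 to 26.3 in monocytes and 0 to 0.702 in B cells. It was called higher in monocytes, neutrophils and macrophages, with log2 differences of 3.58, 3.14 and 1.80.

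**Figure D3:**
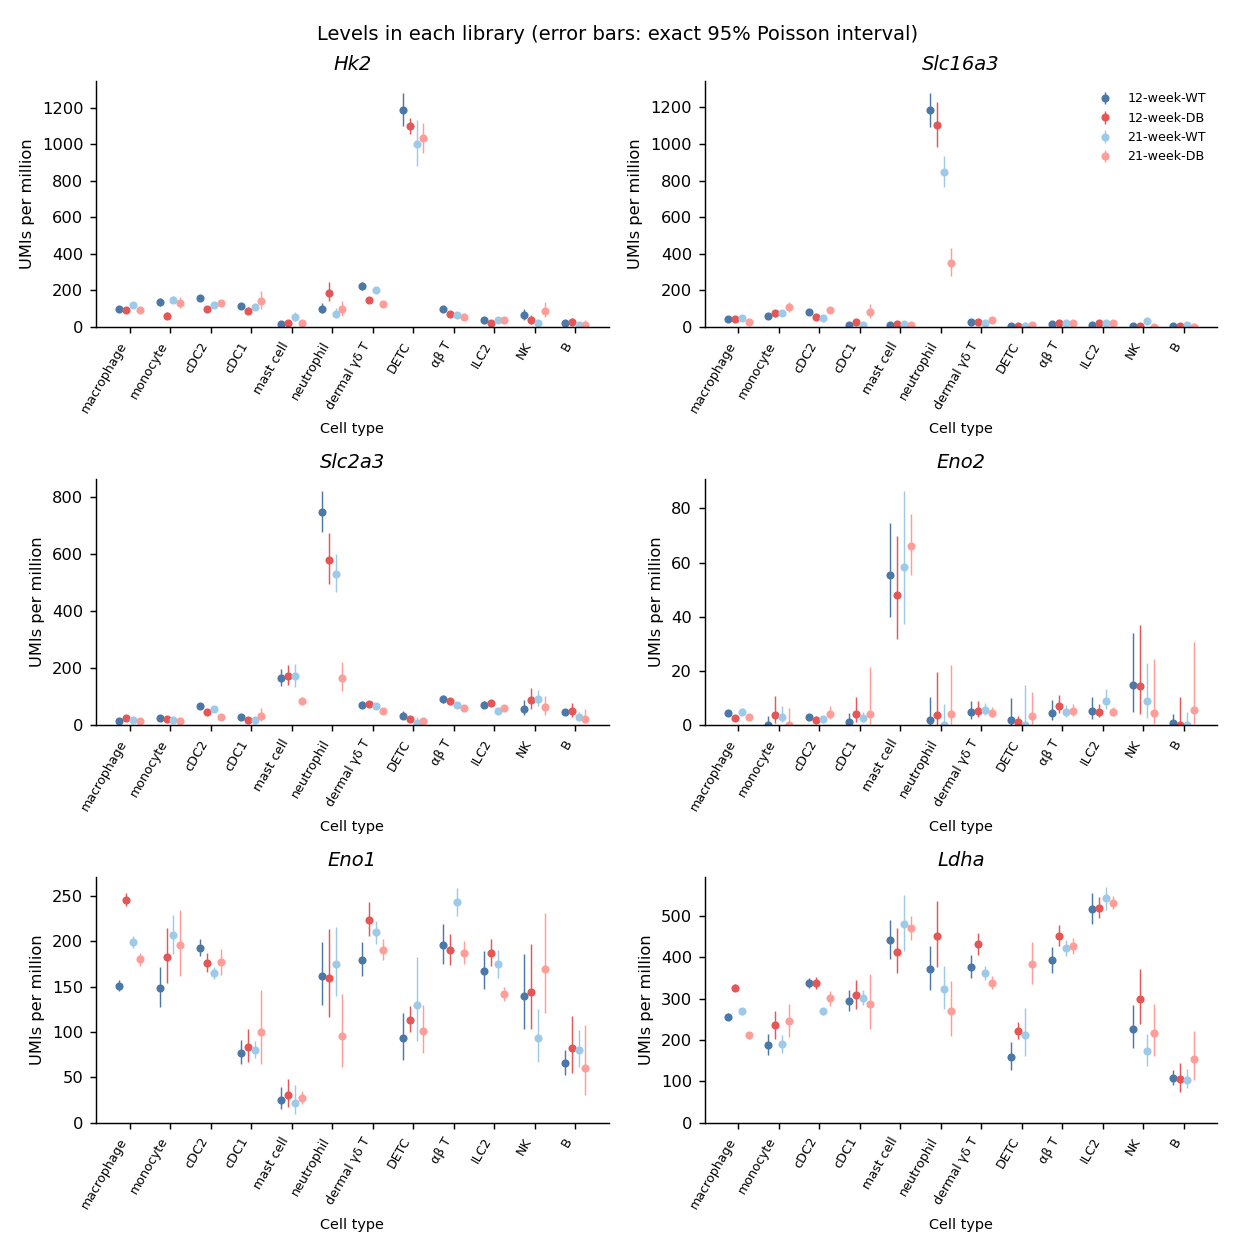
CPM of Hk2, Slc16a3, Slc2a3, Eno2, Eno1 and Ldha (vertical axes, each from 0) in the 12 cell types, 1 point per library with its exact 95% Poisson interval, which covers counting error only. Hk2 of DETC (1002 to 1188), Slc16a3 of neutrophils and Eno2 of mast cells stand apart in every library, while Slc2a3 of the 21-week-DB neutrophils (163) meets the mast cells.

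Among the regulators, Pfkfb3 and Pfkfb4 make and break the sugar phosphate that activates phosphofructokinase. Pfkfb4 was at 36.8, 72.9, 58.1 and 11.9 in neutrophils, 39.3, 39.4, 32.7 and 23 in monocytes and 37.1, 29.2, 29.3 and 24 in macrophages, and at most 5.83 in every library of the T, NK and ILC2 gates. B cells, at 11.2, 28.2, 8.74 and 11, were above these and reached the macrophages in 12-week-DB. It was higher in myeloid than lymphoid types (log2 difference 2.62, SE 0.17, adjusted p = 1.06e-17). Pfkfb3 reached 31.3, 167, 54 and 63.7 in neutrophils and 67, 51.5, 80.0 and 116 in mast cells (log2 difference 1.20, SE 0.13, adjusted p = 4.47e-11 for myeloid against lymphoid types). The 11 early-response and heat-shock genes summed to 34726 to 44556 CPM in mast cells, above every other type, and to 11805 to 20006 in neutrophils, which overlapped B cells (15017 to 16866), NK cells (12126 to 17324) and monocytes (9149 to 17926), and their part in these levels was not tested.

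Tigar, which lowers that sugar phosphate, went the other way, with 14.8 to 24.8 CPM in DETC and 13.5 to 18 in dermal γδ T cells against 4.75 to 6.02 in macrophages (log2 difference -1.51, SE 0.19, adjusted p = 2.79e-09 for myeloid against lymphoid types). Pdk1 and Pdk3 switch off pyruvate dehydrogenase. Pdk1 was highest in αβ T cells at 47.8, 44.4, 39.1 and 37.4 (log2 difference 1.04, SE 0.14, adjusted p = 2.19e-08), and Pdk3 in cDC2 at 29.3, 33.6, 35.9 and 31.4 (log2 difference 1.31, SE 0.12, adjusted p = 1.52e-12). Bpgm, which makes bisphosphoglycerate and is best known from red cells, was at 77, 54.9, 35.5 and 38 in DETC and 23.2, 16.3, 19.6 and 14.4 in dermal γδ T cells (log2 difference 2.20, SE 0.17, adjusted p = 3.29e-15 for DETC), while the 4 hemoglobin genes summed to 0 to 6.61 CPM in DETC.

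Pfkfb1, Pfkfb2 and Fbp1, below the filter, had means of at most 1.52, 3.61 and 8.83 CPM in any type. Over all types, 18 of 30 members were higher in myeloid than lymphoid types (30.7% of all genes) and 5 were lower (32.7%). The median log2 difference was 0.41 over the members and -0.04 over all genes tested. The 5 that were lower in myeloid types were Tigar, Slc16a1, Bpgm, Pdk1 and Pfkl. With total UMIs as the only scaling, 15 were higher and 7 lower, and the median of all genes moved by -0.12.

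Lyve1, a hyaluronan receptor, marks a population of perivascular and connective tissue macrophages, and the study divided its macrophages by it. A macrophage was Lyve1+ with at least 1 Lyve1 UMI, which gave 1093, 1080, 946 and 949 Lyve1+ and 518, 708, 553 and 415 Lyve1- cells. These counts were taken without the study's ambient RNA removal, so the groups are not those of the study. No ambient subtraction was run for this split. The members that passed the test were all lower in the Lyve1+ cells. Of 31 members tested, 7 were lower (12% of 11813 genes) and 0 were higher (12.4%). The median log2 difference was -0.13 over the members and 0.01 over all genes.

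Slc2a1 was at 10.9, 11.1, 16.9 and 8.64 CPM in Lyve1+ and at 19.4, 21.1, 27.4 and 22.9 in Lyve1- macrophages (log2 difference -1.02, SE 0.13, adjusted p = 5.85e-04). The 2 groups of values did not overlap. Hk2 was at 88.1, 77.3, 114 and 80.8 in Lyve1+ and 127.6, 119, 142 and 139 in Lyve1- cells (log2 difference -0.64, SE 0.08, adjusted p = 4.73e-04), and the groups again did not overlap. Aldoc, at 2.87, 2.54, 4.54 and 1.83 in Lyve1+ and 4.44, 6.54, 8.09 and 4.53 in Lyve1- cells, overlapped between groups but was lower in the Lyve1+ cells of each library (log2 difference -1.10, SE 0.21, adjusted p = 0.00581). Pfkp, Slc2a3, Pkm and Ldha fell by 0.41, 0.53, 0.26 and 0.25 on the log2 scale (adjusted p = 0.00903, 0.0265, 0.0307 and 0.0384), each lower in the Lyve1+ cells of all 4 libraries.

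All 11 early-response and heat-shock genes were lower in the Lyve1+ cells too, with a median log2 difference of -0.77, and their part in these 7 calls was not tested. Lyve1+ cells were deeper, with medians of 9377 to 11161 UMIs against 7499 to 9177, and 6 members were lower and 0 higher when cells were thinned to 2000 UMIs. Without the 12-week-DB library 4 members were called, with the marker minimum doubled 4, and without the library block 1, Slc2a1.

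**Figure D4:**
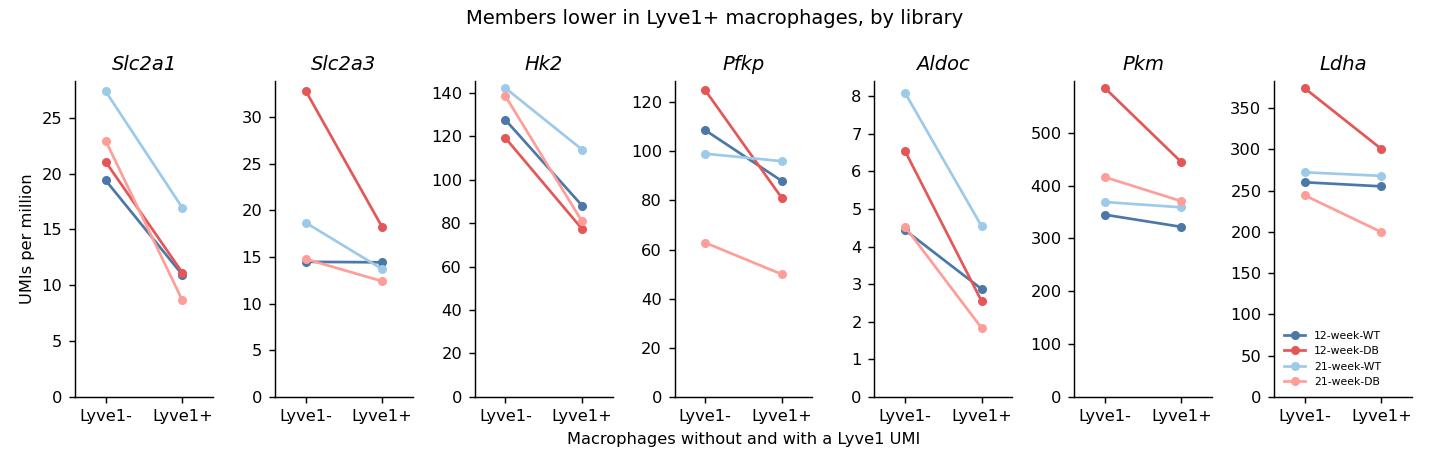
CPM (vertical axes, each from 0) of the 7 members that were lower in Lyve1+ macrophages, with a line for each library from its Lyve1- to its Lyve1+ macrophages. Every line falls, by more for Slc2a1, Hk2 and Aldoc than for Pkm and Ldha, where the lines of both WT libraries are nearly flat.

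Genotype and age were compared library against library, and a fit of genotype across both ages was not run. A member was judged in a cell type when it had at least 50 UMIs in both libraries together, and called past a ratio of 1.5, with no test. Over all kept barcodes the summed members stood at 3431, 3502, 3145 and 2766 CPM. That is a log2 ratio of DB over WT of 0.03 (95% counting interval 0.02 to 0.04) at 12 weeks and -0.19 (95% counting interval -0.20 to -0.18) at 21 weeks, where intervals here and in brackets after later ratios cover counting error and not the difference between mice. With each cell type set to its share in the WT library, the ratios were -0.003782 and -0.14. Fewer cells of a type and less RNA per cell cannot be told apart in such sums alone. At 21 weeks mast cells numbered 195 in WT and 1214 in DB, with median depths of 1753 and 1402 UMIs. The cDC2 numbered 1000 and 240, with 13827.5 and 12640.5 UMIs.

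At 21 weeks 5 of 33 members were called lower in DB over all kept barcodes (10.4% of all genes) and 2 higher (21.8%). The lower ones were Slc2a6, Pfkp, Aldoc, Pdk3 and Fbp1, and the higher ones were Pfkm and Tigar, with log2 ratios of 0.61 and 0.61. Some ratios were smaller with each type at its WT share. Slc2a6 was at 21.8 in WT and 13.1 in DB, a log2 ratio of -0.73 that became -0.16 at WT shares. Slc16a3 went from -0.51 to -0.01. Others moved less, with Pfkp at -0.68 and -0.51 and Pgk1 at -0.39 and -0.39. Still others grew in size at WT shares, among them Slc2a3 (-0.17 and -0.43), Pfkl (-0.10 and -0.31), Hk1 (-0.10 and -0.24) and Eno3 (0.17 and 0.46). At 12 weeks 1 member, Fbp1, was called lower (7.72% of all genes) and 0 higher (5.65%).

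Macrophages, the largest gated group in every library but 21-week-DB, had ratios of the summed members with opposite signs at the 2 ages. At 12 weeks the sum was 2853 in WT and 3546 in DB, a log2 ratio of 0.31 (95% counting interval 0.30 to 0.33), and at 21 weeks 3148 and 2815, a log2 ratio of -0.16 (95% counting interval -0.18 to -0.14). At 12 weeks 3 of 32 members judged were higher in DB (4.71% of all genes) and 1 lower (8.52%). The higher ones were Eno1 (151 in WT and 246 in DB), Slc2a3 (14.4 in WT and 23.5 in DB) and Pkm (328 in WT and 495 in DB).

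At 21 weeks 9 of 32 were lower in DB macrophages (8.42% of all genes) and 1 higher (13.9%). The lower ones included transporters, phosphofructokinases and Fbp1, but not Aldoa, Tpi1, Gapdh, Pgk1, Pgam1, Eno1, Pkm or Ldha. Among transporters, Slc2a1 was at 20.2 in WT and 12.2 in DB and Slc2a6 at 32.7 in WT and 18.3 in DB, log2 ratios of -0.72 [-1.001 to -0.45] and -0.84 [-1.06 to -0.62]. Of the phosphofructokinases, Pfkp was at 97 in WT and 53.2 in DB and Pfkl at 18.9 in WT and 9.58 in DB, log2 ratios of -0.87 [-0.997 to -0.74] and -0.98 [-1.29 to -0.68]. Slc16a3 was at 50.5 in WT and 29.3 in DB, a log2 ratio of -0.79 [-0.96 to -0.61], with Slc16a1, Eno2 and Aldoc also lower. The lowest ratio was that of Fbp1, the gluconeogenic fructose bisphosphatase, at 2.66, 2.45, 6.85 and 0.532 in the 4 libraries, a log2 ratio of -3.69 [-5.03 to -2.60] on 7 and 114 UMIs. The 21-week-WT library was the high one for Fbp1, and both 12-week libraries lay between.

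From 12 to 21 weeks, DB macrophages had 10 of 32 members lower (13.6% of all genes) and 2 higher (10.1%), and WT macrophages 2 lower (12.2%) and 3 higher (3.14%). The median log2 ratio was -0.40 over the members and -0.11 over all genes judged in DB, and 0.06 and -0.17 in WT. These contrasts share libraries with those by genotype. The 11 early-response genes summed to 6772, 4287, 8167 and 7921 CPM in macrophages of the 4 libraries, lowest in 12-week-DB where the module was highest, and their part was not tested.

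cDC2 showed the reverse order at 12 weeks. Their sum was 4061, 3304, 2965 and 3163, with a log2 ratio of DB over WT of -0.30 (95% counting interval -0.32 to -0.27) at 12 weeks and 0.09 (95% counting interval 0.06 to 0.12) at 21 weeks. At 12 weeks 6 of 27 members judged were lower in DB (4.06% of all genes) and 0 higher (3.64%). They were Pfkp (324 in WT and 169 in DB), Slc2a1 (47.7 in WT and 29.2 in DB), Hk2 (157 in WT and 97.3 in DB), Slc16a3 (81.7 in WT and 52.5 in DB), Slc2a3 (66.7 in WT and 43.2 in DB) and Pgk1 (217 in WT and 143 in DB). At 21 weeks 2 of 27 were lower (11.4%), Aldoc and Slc2a3, and 4 higher (11.7%), among them Slc2a1 (26.4 in WT and 41.5 in DB) and Slc16a3 (51.1 in WT and 91.2 in DB).

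Over both ages the 12-week-WT library was the high one in cDC2. Against it, 21-week-WT cDC2 had 13 of 29 members lower (16.2% of all genes) and 0 higher (2.45%). Aldoa went from 408 to 220.1 CPM (log2 ratio -0.89 [-0.96 to -0.82]) and Pgam1 from 205 to 122 (-0.75 [-0.85 to -0.66]). In DB, 4 of 25 were lower (22.8%) and 1 higher (7.09%). The median log2 ratio between ages was -0.42 over the members and -0.21 over all genes judged in WT cDC2, and -0.17 and -0.22 in DB cDC2.

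Neutrophils of 21-week-DB had the lowest module of the 4 libraries in that type, with a log2 ratio over WT of -0.51 (95% counting interval -0.62 to -0.39) at 21 weeks against -0.04 (95% counting interval -0.12 to 0.05) at 12 weeks. At 21 weeks 7 of 14 members judged were lower in DB (29.1% of all genes) and 0 higher (19.8%). Slc2a3 was at 529 in WT and 163 in DB, a log2 ratio of -1.70 [-2.21 to -1.22], and Slc16a3 at 847 in WT and 350.4 in DB, a ratio of -1.27 [-1.62 to -0.94]. In DB from 12 to 21 weeks 10 of 14 were lower (33.6% of all genes) and 0 higher (23.3%), with median log2 ratios of -0.86 over the members and -0.20 over all genes judged.

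That library held only 48 neutrophil barcodes, and other values moved with it. Csf3r, a neutrophil receptor gene, was at 1160.4, 1132, 1418 and 593 CPM. The 6 fibroblast markers summed to 84.6, 174, 2424 and 2461 in the neutrophil gate. They came from 3 barcodes of 21-week-DB and 6 of 21-week-WT with at least 10 such UMIs each. Without those barcodes the log2 ratios at 21 weeks were -1.63 for Slc2a3, -1.30 for Slc16a3 and -0.46 for the module, and with the highest doublet scores removed they were -1.71, -1.36 and -0.55. At 12 weeks Pfkfb3 had the largest ratio, from 31.3 in WT to 167 in DB on 17 and 48 UMIs (log2 ratio 2.41 [1.59 to 3.31]), and 4 of 16 members were higher (16.4% of all genes) and 2 lower (20.9%). The early-response genes summed to 11805 and 20006 there.

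**Figure D5:**
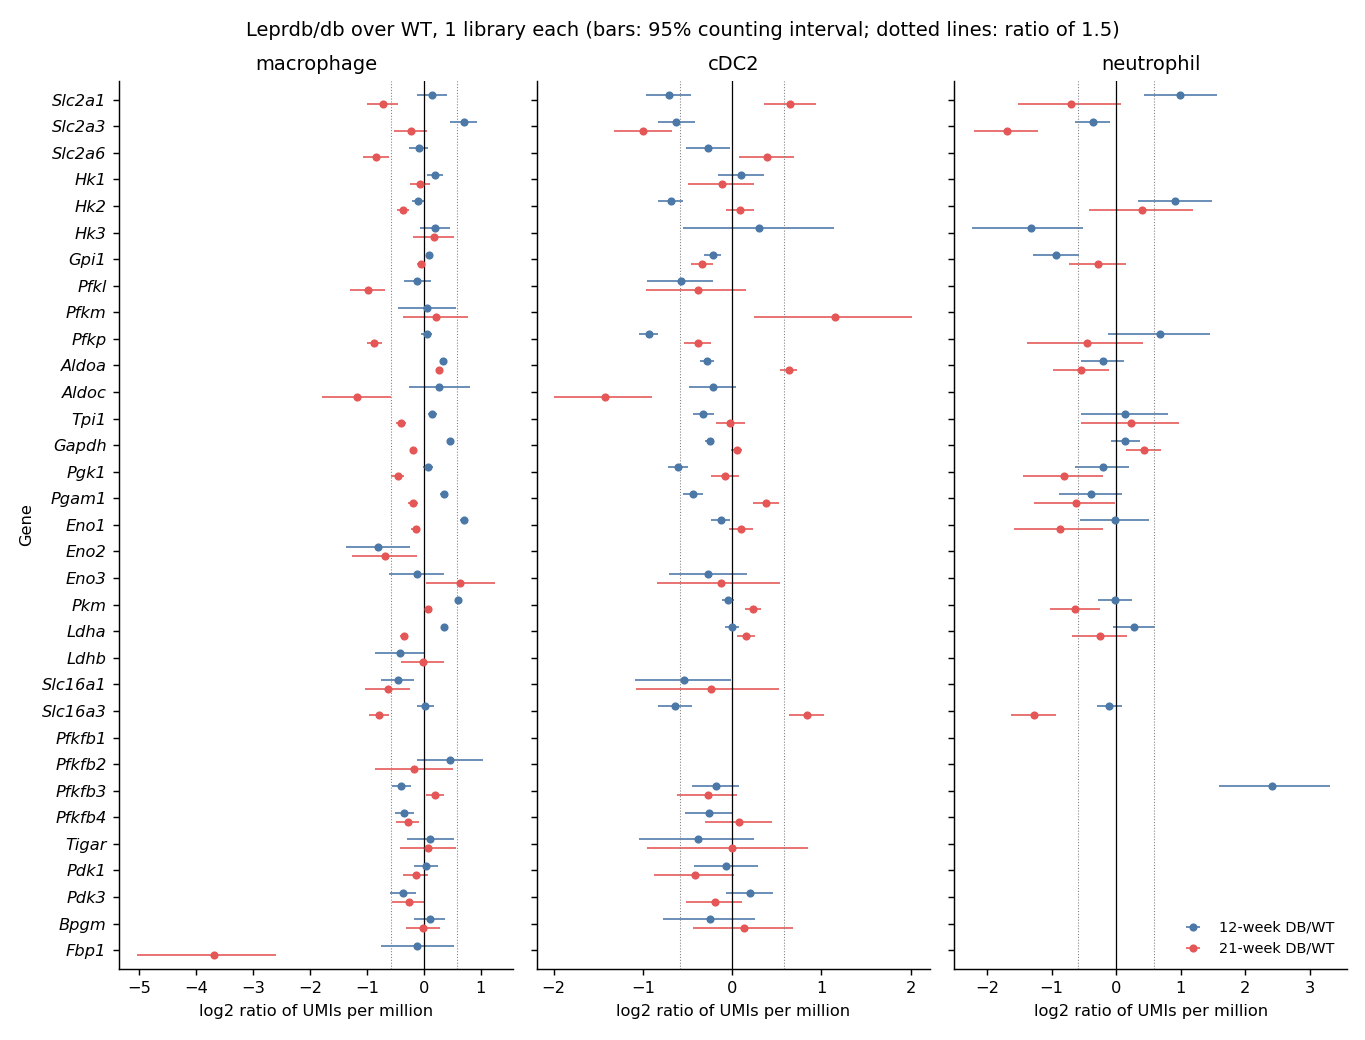
Log2 ratio of DB over WT (horizontal axis, 1 library each) for each member with at least 50 UMIs in macrophages, cDC2 and neutrophils at 12 weeks (blue) and 21 weeks (red), with 95% counting intervals and dotted lines at a ratio of 1.5. In macrophages most 21-week points lie left of the 12-week points, in cDC2 most lie to their right, and in neutrophils Slc2a3 and Slc16a3 at 21 weeks lie at -1.70 and -1.27.

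In the lymphoid types at 21 weeks, Pkm was lower in DB αβ T cells (408 in WT and 218 in DB, log2 ratio -0.91 [-1.02 to -0.79]) and DB ILC2 (350.3 in WT and 194 in DB, -0.85 [-0.97 to -0.73]). αβ T cells had 5 of 24 members lower (13.2% of all genes) and 2 higher (10.8%), and ILC2 2 of 24 lower (13.8%) and 0 higher (12.8%). Hk2 in dermal γδ T cells was lower in DB at both ages, at 225, 149, 203 and 127 in the 4 libraries (log2 ratios -0.59 [-0.80 to -0.39] and -0.67 [-0.81 to -0.53]). That type had 1 of 22 members lower at 12 weeks (3.25% of all genes) and 1 higher (4.93%). At 21 weeks it had 1 of 26 lower (9.59%) and 1 higher (14.1%). In DETC, where Hk2 was highest, its ratios were -0.11 [-0.24 to 0.01] at 12 weeks and 0.04 [-0.17 to 0.26] at 21 weeks, within the ratio of 1.5. Cycling markers in dermal γδ T cells summed to 325, 326, 315 and 40.2 CPM, low in 21-week-DB.

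Mast cells of 21-week-DB, the library with the most of them (1214 barcodes), had 4 of 19 members lower than WT (12.9% of all genes) and 0 higher (15.3%), with Slc2a3 at 169.8 in WT and 84.5 in DB (log2 ratio -1.01 [-1.41 to -0.59]). At 12 weeks 0 of 16 were called in either direction, against 7.22% lower and 6.07% higher of all genes. At 21 weeks Slc2a3 was thus called lower in DB for neutrophils, mast cells and cDC2. In cDC1 it went the other way (17.8 in WT and 30.7 in DB, on 66 and 8 UMIs). ILC2 (48.7 in WT and 59.8 in DB) and αβ T cells (68.1 in WT and 57.8 in DB) stayed within the ratio of 1.5. At 12 weeks Slc2a3 was also called lower in DB cDC2, was at 747 in WT and 579.8 in DB neutrophils, and was at 164 and 172 in mast cells, the last 2 pairs within the ratio of 1.5.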

How the data were processed

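CD45+ hindpaw cells of 4 libraries were measured by 10x Genomics 3′ single-cell RNA-seq. The authors aligned the reads to mm10 and counted UMIs with Cell Ranger (5.0.0 and 6.0.0 in the file headers, 5.0.0 in the submitters' processing notes), and deposited whole-number UMI counts per gene and barcode, before the ambient RNA removal and doublet filter of their own analysis. All values printed were computed from these counts. Barcodes were kept from 200 genes upward if mitochondrial genes held no more than 10% of their UMIs. Each was placed in 1 of 12 types by summed marker UMIs per 10000 UMIs, with minimums set after the marker distributions were seen, and barcodes that met 2 gates were left out, with no doublet caller. The 2 Aldoa rows were summed, and the marker genes were left out of the edgeR and DESeq2 fits.

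UMIs were summed per library and type and tested in R 4.3.3 with edgeR 4.0.16 (TMM scaling, filterByExpr, quasi-likelihood fit with type and library, Benjamini-Hochberg adjusted p of 0.05 over all genes tested), and the scripts were tested on simulated data. Groups of under 20 cells would have been left out, and there were none. Conditions were compared by log2 ratios of CPM with exact 95% counting intervals, called past a ratio of 1.5 with at least 50 UMIs in both libraries together. Counting intervals cover counting error only. Alternatives were DESeq2 1.42.0, other scalings, no filter, no library block, each library left out, stricter gates, Scrublet scores (scanpy 1.11.5, 0.8% per 1000 barcodes) and ambient subtraction. Leaving out shared barcodes, or barcodes with fibroblast UMIs, was chosen after seeing the data. All members are named, and a gene of a related list is named where it passed with the largest log2 difference of its list. The members and lists were chosen with earlier results of these data known.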

Additional observations from a re-analysis of the deposited data

Results flagged for a closer look

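Several log2 ratios of DB over WT had opposite signs at the 2 ages, with 95% counting intervals on opposite sides of 0. The summed members were at 0.31 at 12 weeks and -0.16 at 21 weeks in macrophages, at -0.30 and 0.093 in cDC2, at 0.062 and -0.29 in dermal γδ T cells, and at 0.029 and -0.19 over all kept barcodes. In cDC2, Slc2a1 was at -0.71 and 0.65, and Slc16a3 at -0.64 and 0.84. The difference between ages was not tested, since each group is 1 library, and library, software version and age cannot be told apart.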

How the results depend on the processing

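Each condition was 1 pool of 2 to 3 mice, so ratios between conditions carry no error between mice, and the groups of 21 to 48 cells limit what depth can show. No paired analysis was possible because each group is 1 library with no replicate number that another group shares; the library block instead ties the cell types of 1 library.

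Without the block 1 member was called between Lyve1+ and Lyve1- macrophages in place of 7, and with doubled marker minimums 4. Leaving out 1 library at a time gave 4 to 9 calls there, with 4 without 12-week-DB. In the type contrasts it gave 9 to 19 in cDC1 (9 without 21-week-WT), 11 to 17 in dermal γδ T cells (11 without 12-week-DB), 12 to 18 in DETC (12 without 12-week-WT, 13 without 12-week-DB), 6 to 11 in NK cells (6 without 21-week-WT, 7 without 12-week-DB), 10 to 15 in ILC2 (10 without 12-week-DB), 10 to 16 in αβ T cells, 13 to 16 in B cells, 12 to 16 in monocytes, 16 to 20 in macrophages, 17 to 19 in cDC2, 20 to 24 in mast cells, 19 to 23 in neutrophils and 20 to 23 between myeloid and lymphoid types. No called member changed sign in these fits.

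With the ambient share subtracted, Eno1 turned to 0.35 in cDC1, 0.51 in DETC and 0.79 in NK cells (log2 differences). Mast cells, which enter the mean of the other types, were then at 0, and the cause was not tested. With doubled marker minimums Eno3 in cDC1 turned to -0.14, and the cause was not tested. Scaling by total UMIs alone moved the median of all genes by -0.15 in monocytes, -0.16 in cDC1, 0.20 in mast cells and -0.24 in neutrophils, and DESeq2 by 0.18 in neutrophils. The split of higher and lower calls became 12 and 5 in monocytes under that scaling (14 and 3 with TMM), 16 and 6 in macrophages with no filter, 7 and 10 in DETC with doubled minimums or ambient subtraction, 9 and 3 in αβ T cells and 3 and 7 in NK cells with ambient subtraction.

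Past a ratio of 2 in place of 1.5, 3 calls of members by type remained of 32 between DB and WT at 12 weeks, 13 of 55 at 21 weeks, 4 of 49 between ages in WT and 14 of 60 in DB. Those judged numbered 232, 234, 242 and 217, with a gene counted once in each type. The share of all genes past a ratio of 2 is not given, so these counts do not set the members apart. The log2 ratio of the summed members over all kept barcodes moved at 12 weeks to 0.017 with at most 5% mitochondrial UMIs, 0.017 without Gapdh, 0.009515 without the 20 most abundant genes in the totals and -0.003782 at WT shares. At 21 weeks the last 3 gave -0.15, -0.29 and -0.14. Between ages in WT it was -0.15 at 5%, -0.14 with doublets removed, -0.18 without Gapdh and -0.075 without the 20 genes, and in DB -0.36, -0.35 and -0.37 for 5%, Gapdh and the 20 genes. In macrophages, doubled minimums gave 0.34 (DB over WT at 12 weeks), 0.23 (WT between ages) and -0.27 (DB between ages). There, Gapdh left out gave 0.28 at 12 weeks and 0.084 for WT, and the 20 genes left out gave -0.25 at 21 weeks, 0.20 for WT and -0.36 for DB.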

Other observations

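Side branches of glycolysis were mostly higher in the myeloid types. Of 7 pentose phosphate genes tested, 5 were higher in myeloid than lymphoid types and 1 lower in edgeR's quasi-likelihood test with Benjamini-Hochberg adjustment (30.7% and 32.7% of all genes), with a median log2 difference of 1.14. Pgd, which yields NADPH from phosphogluconate, had a log2 difference of 1.54 (SE 0.08, adjusted p = 1.12e-21). Of 9 glycogen genes, 7 were higher and 1 lower, with a median of 0.84. Pygl, the phosphorylase that frees glucose units from glycogen, had 1.80 (SE 0.17, adjusted p = 1.19e-12).

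Of 17 genes of the hypoxia-factor pathway and its targets outside glycolysis, 6 were higher in myeloid types and 6 lower, with Ndrg1 at 2.28 (SE 0.15, adjusted p = 1.89e-17). Of 10 genes of pyruvate entry, 1 was higher and 4 lower, with Pdp2 at -0.61 (SE 0.16, adjusted p = 6.78e-04). Of 7 other regulators, 1 was higher and 3 lower, with Myc, a transcription factor that drives growth, at -1.20 (SE 0.16, adjusted p = 1.20e-08). Of 7 other isozymes and transporters, 2 were higher, with the monocarboxylate transporter Slc16a7 at 3.54 (SE 0.44, adjusted p = 2.15e-09). Of 11 early-response genes, 4 were higher and 4 lower, with Egr1 at 1.48 (SE 0.13, adjusted p = 1.41e-13). The difference between lists was not tested.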
